A study of Mus musculus with 11 samples.

Results

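Levetiracetam was compared with no drug in the mouse hippocampus 7 d after photothrombosis, over 4 of the 11 libraries of the series: 1 library for each side of the brain in mice with the drug and 1 for each side in mice without it. The libraries were chosen by their labels, and each was set against the one of the same side. Photothrombosis (PT) closes vessels of the cortical surface by lighting a dye in the blood: rose bengal (35 mg/kg) was given to C57BL/6N male mice, and LED light of 565 nm was shone for 30 min on a spot of 3.5 mm over the left parietal lobe. Libraries of the left hippocampus are called the infarcted side here, as in the labels, and those of the right the non-infarcted side; the light fell on the cortex, and the RNA came from the whole hippocampus. The measurement was cap analysis of gene expression (CAGE), which counts reads from the capped 5′ ends of RNA, given per gene as CPM, reads scaled to the library total.

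Both groups had PT, and the group with the drug was given levetiracetam (LEV), which the series describes as dissolved (5 mg/mL) in what the mice drank. Dosing is described there as starting 1 month after PT, and the days on which the 7 d mice were dosed are not stated. Mice of 8 to 10 weeks and of 65 to 85 weeks are named for the series, and neither the age nor the number of animals behind a library is given, nor whether the 2 sides of a condition share animals. The other 7 libraries, naive hippocampus and the sides of PT at 1 month, PT at 1 month with LEV and PT at 2 months after LEV withdrawal, are given where they place a value. There was 1 library per condition and side. The p-values below measure how far the sides of a condition depart from a common side difference. The 2 sides thus stand in as replicates of the drug, though they may share animals. No spread between mice of the same condition was measured, and the spread that was measured may be technical.

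Levetiracetam is an anti-seizure drug that binds SV2A, a protein of the synaptic vesicle membrane. After a cortical infarct, microglia and incoming macrophages take up debris and raise genes of the lysosome, astrocytes raise intermediate filament genes such as Gfap, and cells of the vessels and meninges rebuild the border of the lesion. In bulk tissue, fewer cells of a type and less RNA per cell cannot be told apart.

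Totals were 17501789 and 16053691 reads without LEV (infarcted, then non-infarcted side) and 19222979 and 17696949 reads with LEV, and 93.7% to 96.1% of each total was assigned to a gene. For a gene with a count of 0 the upper limit is 3 reads (0.156 to 0.187 CPM in these 4 libraries); this and all intervals of single libraries (exact, 95%) cover counting error only. Of 22377 genes, 16107 had a mean of at least 1 CPM over the 4 libraries and were tested. Markers of the hippocampus were present in all 4: Prox1, a transcription factor of dentate granule cells, was at 62.6 and 68.0 CPM without LEV and 59.2 and 58.0 CPM with it. The 11 tested of 12 hippocampal marker genes summed to between 784 and 815 CPM, and 18 marker genes of neocortex, thalamus and striatum to between 434 and 480 CPM.

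The results turn on 2 patterns, and 1 to 3 promoters of each are shown for the genes that carry them. The sequences are the RefSeq windows (GRCm38.p6) from 250 bases before to 50 bases after the gene start, in the direction of the gene. Pomc, the gene of the precursor of ACTH, alpha-MSH and beta-endorphin, had the largest difference shared by both sides (chr12:3954695-3954994, + strand). Gpnmb (chr6:49036268-49036567, + strand), Cd68 (chr11:69666121-69666420, - strand) and Ctsd (chr7:142387778-142388077, - strand) are phagocyte and lysosome genes that were lower with LEV on the infarcted side only. Capitals mark matches on either strand to TATAAA (the letters of many core promoters), GAGGAA (a core that PU.1, a transcription factor of myeloid cells, can bind) and CACGTG (an E-box of the kind bound by TFEB, a regulator of lysosome genes).
Pomc: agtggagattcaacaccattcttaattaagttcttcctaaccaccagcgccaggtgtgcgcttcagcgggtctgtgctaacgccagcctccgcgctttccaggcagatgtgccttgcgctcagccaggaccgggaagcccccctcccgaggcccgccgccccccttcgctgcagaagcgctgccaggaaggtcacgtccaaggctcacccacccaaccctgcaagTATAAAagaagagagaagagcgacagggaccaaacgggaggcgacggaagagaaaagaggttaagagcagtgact
Gpnmb: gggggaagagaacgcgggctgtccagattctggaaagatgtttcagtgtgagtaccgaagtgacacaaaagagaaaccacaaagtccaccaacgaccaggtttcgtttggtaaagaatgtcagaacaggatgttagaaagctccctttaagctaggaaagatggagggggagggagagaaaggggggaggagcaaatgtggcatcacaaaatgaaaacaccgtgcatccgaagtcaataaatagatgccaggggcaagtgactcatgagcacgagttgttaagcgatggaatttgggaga
Cd68: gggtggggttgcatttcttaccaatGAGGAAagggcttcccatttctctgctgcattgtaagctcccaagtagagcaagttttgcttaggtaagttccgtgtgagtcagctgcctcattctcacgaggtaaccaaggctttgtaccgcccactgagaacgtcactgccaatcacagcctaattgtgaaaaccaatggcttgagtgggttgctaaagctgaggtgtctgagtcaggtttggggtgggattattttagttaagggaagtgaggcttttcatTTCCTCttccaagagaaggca
Ctsd: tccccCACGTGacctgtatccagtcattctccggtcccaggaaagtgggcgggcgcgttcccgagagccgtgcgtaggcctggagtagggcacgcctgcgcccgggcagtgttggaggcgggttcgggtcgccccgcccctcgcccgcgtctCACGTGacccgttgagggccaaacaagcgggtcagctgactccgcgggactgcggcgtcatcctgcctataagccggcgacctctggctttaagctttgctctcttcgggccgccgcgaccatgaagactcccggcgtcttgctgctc
The Pomc window held TATAAA 25 bases before the start. Cd68 held GAGGAA 225 bases before the start and on the opposite strand 29 bases after it, and Ctsd held CACGTG 245 and 98 bases before the start. The Gpnmb window held none of these letters. Shares were counted per gene, a match in any window of a gene being enough. Of all 27025 genes with a window in the RefSeq table, 31.25% held GAGGAA, 8.09% CACGTG and 15.7% TATAAA. Of the 11611 genes tested here that had a window, from which the sets below come, the shares were 30.1%, 11.4% and 8.85%. Of 62 genes lower on the infarcted side only with a mean of at least 5 CPM, 42 had a window; GAGGAA was in 16 (38.1%), CACGTG in 3 (7.14%) and TATAAA in 12 (28.6%). Of 89 such genes that were higher on the infarcted side only, 69 had a window, with GAGGAA in 19, CACGTG in 9 and TATAAA in 7. These matches describe letters in a window and no measured binding.

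The first question was which genes differed with LEV in the same way on both sides. Pomc was nearly absent without LEV and present with it, Ajm1 was higher with LEV and Eps8l1 lower, and few other genes moved this far on both sides. In limma on log2(CPM + 1), with condition and side as terms over the 10 PT libraries, 3 of 16107 genes passed an adjusted p of 0.05 (0.0186%), 2 higher and 1 lower. At an unadjusted p under 0.05 there were 933 genes, 499 higher and 434 lower. With no difference at all, a share of about 0.05 of the 16107 genes would fall there, so this count is no list of changed genes.

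Pomc (ENSMUSG00000020660.6, chr12:3954951-3960642, + strand, GRCm38) was nearly absent without LEV, at 0.114 CPM (infarcted) and 0.125 CPM (non-infarcted), 2 reads in each library. With LEV it was at 13.7 and 12.5 CPM, 263 and 221 reads. The naive library held 0.0714 CPM, and the largest value among the 7 libraries outside 7 d was 0.981 CPM, on the infarcted side at 2 months. Both LEV libraries of 7 d therefore stood above all 9 others, and the ratio to no LEV was 119.7 on the infarcted side (interval 32.8 to 994) and 100.2 on the other (27.4 to 833). The shared difference was 3.65 on the log2(CPM + 1) scale (SE 0.23, limma adjusted p = 3.71e-05), a scale that understates the change of a gene so low without LEV. At 1 month Pomc was at 0 CPM on both sides with LEV and at 0.0747 and 0 CPM without it, both far below the 7 d level with LEV.

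Pomc is made mainly in the pituitary and the arcuate nucleus of the hypothalamus, so other genes of those tissues were read in the same libraries. Agrp, a peptide of a neighbouring arcuate cell type, was at 41.5 and 43.4 CPM without LEV and 50.1 and 50.5 CPM with it. Pcsk1, an enzyme that cuts the Pomc precursor, was at 16.2 and 18.1 CPM without and 17.5 and 17.6 CPM with LEV. Avp, the vasopressin gene of other hypothalamic neurons, was at 4.06 and 4.17 CPM without LEV, 8.43 CPM with LEV on the infarcted side and 4.07 CPM on the other. Only 7 of the 26 hypothalamic and pituitary genes of this list reached 1 CPM; their median difference was 0.11 (infarcted) and -0.03 (non-infarcted), beside -0.01 and 0.01 over all genes tested. The pituitary genes Gh, Prl, Cga, Tshb, Lhb and Pou1f1 were among those not tested, so the median does not cover them. The list summed to between 276 and 327 CPM in the 4 libraries of 7 d and between 289 and 328 CPM in the 7 others. It was written after the Pomc value was seen, and the part of neighbouring tissue in the Pomc result was not tested.

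Ajm1 (apical junction component 1 homolog, ENSMUSG00000029419.8) was at 32.6 and 37.0 CPM without LEV and at 59.7 CPM on both sides with it. The LEV values lay near the 62.5 CPM of the naive library, and the 7 d libraries without LEV were the lowest of all 11. The difference was 0.77 in log2 (SE 0.08, limma adjusted p = 0.00458), a ratio of 1.83 on the infarcted side (1.66 to 2.03) and 1.61 on the other (1.46 to 1.79). At 1 month the order was the other way round, with 64.6 and 67.2 CPM without LEV and 42.3 and 45.6 CPM with it. Ajm1 no longer passed when any of 3 of the 4 libraries was left out (limma adjusted p = 0.0584 without the infarcted side of no LEV, 0.280 and 0.128 without the infarcted and non-infarcted side of LEV).

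Eps8l1, of a family that links growth factor receptors to actin (ENSMUSG00000006154.13), was at 4.57 and 5.61 CPM without LEV and 1.196 and 1.187 CPM with it. The 2 values with LEV were the lowest of the 11 libraries, and the 2 without LEV the highest. The fall was -1.47 in log2 (SE 0.20, limma adjusted p = 0.0495), 3.82-fold lower on the infarcted side (2.38 to 6.37) and 4.72-fold lower on the other (2.91 to 8.00). With 21 to 90 reads per library and a p beside the threshold, the call was lost under 11 of 15 alternatives, TMM scaling among them (limma adjusted p = 0.0669), and whenever 1 of the 4 libraries was left out (0.0794 to 0.685).

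Genes next in order of p did not pass. Eif4ebp2, a translation repressor that binds the cap-binding protein eIF4E, was at 38.5 and 39.6 CPM without LEV and 56.8 and 58.9 CPM with it (log2 0.56, SE 0.08, limma adjusted p = 0.0529). The naive library, at 59.1 CPM, was next to the LEV values. The amino acid transporter gene Slc7a8 was at 35.1 and 33.8 CPM against 48.3 and 51.5 CPM, and Cdipt, the phosphatidylinositol synthase, at 84.1 and 89.0 CPM against 114 and 123 CPM. Pde7b, Stxbp3, Nf1, Ibtk and Eloc were higher by 0.33 to 0.65 in log2; for these and the last 2, limma adjusted p was 0.552 to 0.623. Among lower genes, Slc25a4, the mitochondrial ADP/ATP carrier, was at 418 and 442 CPM without and 330 and 345 CPM with LEV, and Cldn10, a claudin of tight junctions, at 120 and 111 CPM against 88.2 and 89.4 CPM. At 1 month Slc25a4 was at 334 and 348 CPM without and 431 and 458 CPM with LEV, the other order. Pex14, Hpgd, Oaf, Rpl3 and Ermn were lower by 0.33 to 0.52 in log2 with adjusted p of 0.623 to 0.711 in limma.

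By size alone, 8 genes (0.0497%) were at least 1.5-fold higher and 9 (0.0559%) at least 1.5-fold lower with LEV on both sides. For comparison, any gene at least 1.5-fold higher on the infarcted side, whatever the other side did, numbered 320 (1.99%), and at least 1.5-fold lower 219 (1.36%); on the non-infarcted side there were 123 (0.764%) and 115 (0.714%). Of the shared genes, 3 higher and 4 lower had a mean of at least 5 CPM: Pomc, Ajm1 and Dpysl2, and Hbb-bs, Hbb-bt and Spp1 with a gene known only by a clone name. Another 9 genes passed 1.5-fold in opposite directions on the 2 sides.

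Dpysl2, which encodes CRMP2, a tubulin-binding protein of axon growth, was at 119 and 133 CPM without LEV and 218 and 238 CPM with LEV. The ratio was 1.83 (1.73 to 1.93) on the infarcted and 1.78 (1.69 to 1.88) on the other side. It did not pass (log2 0.85, SE 0.19, limma adjusted p = 0.623); at 2 months it was at 161 and 89.0 CPM on the 2 sides, a spread that enters the error. At 1 month it was at 131 and 143 CPM without and 199 and 212 CPM with LEV. The other 4 CRMP genes did not share this: Crmp1 was at 173 and 178 against 171 and 182 CPM, and Dpysl3, Dpysl4 and Dpysl5 differed by -0.13 to 0.19 in log2 on the 2 sides.

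**Figure D1:**
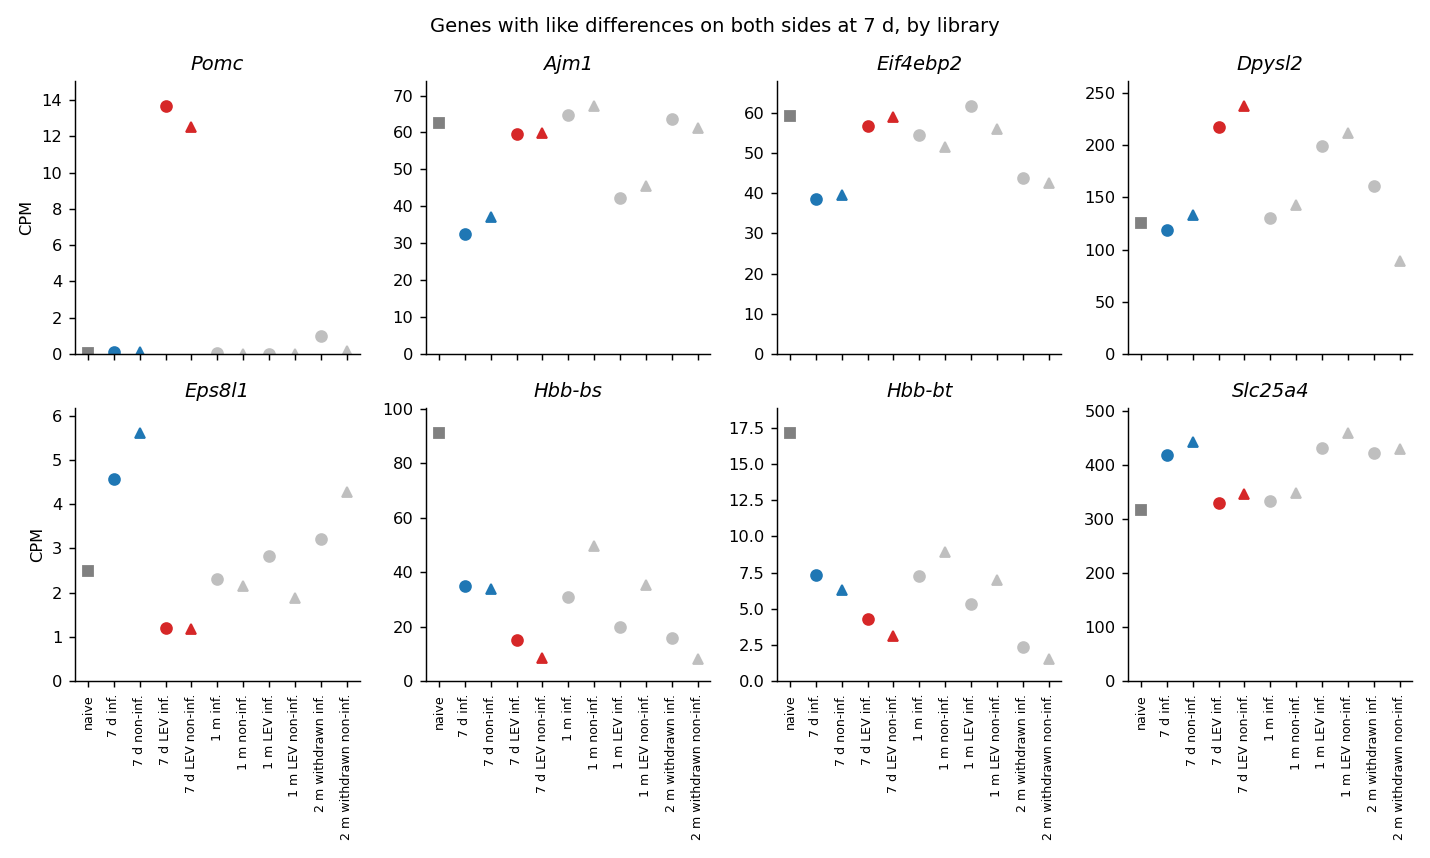
CPM of 8 genes with like differences on both sides, in each of the 11 libraries (circles infarcted side, triangles non-infarcted side, square naive; blue 7 d without LEV, red 7 d with LEV, grey others; y axes linear from 0). Pomc stands near 13 CPM in the 2 LEV libraries of 7 d and under 1 CPM in all others, and Ajm1 is lowest and Eps8l1 highest in the 2 libraries of 7 d without LEV.

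The beta globin genes Hbb-bs and Hbb-bt were lower with LEV on both sides, and neither passed. The alpha globin genes Hba-a1 and Hba-a2 were not among the genes tested. Hbb-bs, the adult beta globin, was at 34.8 and 33.8 CPM without LEV, 15.1 and 8.65 CPM with it, and 91.0 CPM in the naive library (log2 -1.50, SE 0.33, limma adjusted p = 0.623). Hbb-bt was at 7.37 and 6.29 CPM against 4.32 and 3.11 CPM. Of the 15 blood cell genes 5 were tested, 4 of them lower on both sides, against 26.2% of all genes tested. The medians of these 5 were -0.39 (infarcted) and -0.67 (non-infarcted). The 12 genes of this list found in the data, tested or not, summed to 55.0 and 48.8 CPM without LEV and 31.0 and 16.8 CPM with it. In the other libraries they summed to between 13.2 and 114 CPM. Whether blood in the tissue differed was not tested.

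Most tested genes of reactive astrocytes and of myelinating oligodendrocytes were lower with LEV on both sides. The lists were not tested as sets. Gfap without LEV was at 678 CPM (infarcted) and 352 CPM (non-infarcted), and at 401 and 253 CPM with it, where naive tissue had 277 CPM. It was lower on each side (log2 -0.61, SE 0.14), yet limma adjusted p was 0.676. Of 19 tested genes of reactive astrocytes, 11 were lower on both sides and 0 higher on both, against 26.2% and 26.5% of all genes tested. On the infarcted side 3 of the 19 were higher, and on the other side 5. The list's medians were -0.26 and -0.12. Vim, another filament gene, was at 76.0 and 26.5 CPM without and 53.9 and 24.6 CPM with LEV. Lcn2, a secreted lipocalin of injured tissue, was at 13.1 and 1.56 CPM without and 4.11 and 1.19 CPM with LEV. Genes of myelinating oligodendrocytes were lower on both sides in 11 of 15 (medians -0.27 and -0.12): Mbp was at 2290 and 1914 CPM without and 1823 and 1663 CPM with LEV, and Mag at 98.6 and 81.3 against 74.3 and 67.1 CPM. No member of these lists passed.

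The drug's target and genes of vesicle release and inhibition were read next. Sv2a, the target, was at 136 and 139 CPM without LEV and 137 and 135 CPM with it (log2 -0.01, SE 0.09, limma adjusted p = 0.992). Its paralogs Sv2b and Sv2c were at 301 and 293 against 299 and 349 CPM and at 16.5 and 16.9 against 12.9 and 15.03 CPM. None of the 24 genes of SV2 and vesicle release was 1.5-fold different on either side, with medians of -0.01 and 0.05. Of 12 tested GABA-A receptor subunits, 6 were higher and 2 lower on both sides (medians 0.11 and 0.09). At least 1.5-fold higher on the infarcted side only was 1 of them, against 1.23% of all genes tested. Over all genes tested, 26.5% were higher and 26.2% lower on both sides. Of 15 genes of GABA synthesis, transport, chloride transport and GABA-B receptors, 6 were higher and 3 lower on both sides (medians 0.05 and 0.05). The transporter gene Slc6a13, described with the meningeal genes, was the 1 of these 15 past 1.5-fold on the infarcted side, at 5.60 CPM without and 32.3 CPM with LEV. The 7 metabotropic glutamate receptors were all lower on the infarcted side (median -0.23) and 6 of 7 were higher on the other (0.18). Of all genes tested, 53.1% were lower on the infarcted side and 53.3% higher on the other. None of the 7 receptors was 1.5-fold different on either side. The 24 activity-induced immediate early genes had medians of -0.04 and -0.06: Fos was at 6.06 and 4.05 CPM without and 4.84 and 5.26 CPM with LEV, and Npas4 at 3.03 and 3.99 against 3.54 and 3.73 CPM.

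Lists of neuronal classes had medians near that of all genes. CA1 pyramidal cell genes had medians of 0.04 (infarcted) and 0.05 (non-infarcted), CA2 and CA3 genes 0.02 and -0.07, and dentate granule cell genes -0.02 and -0.13. Of 16 interneuron genes, 14 were higher on the non-infarcted side (median 0.14) and 6 on the infarcted (-0.04), against 53.3% and 46.9% of all genes tested. Glutamate receptors of the AMPA, NMDA and kainate classes had medians of -0.02 and 0.12, sodium and calcium channels 0.04 and 0.11, and potassium and HCN channels 0.02 and -0.02. No gene of these lists was at least 1.5-fold different on the infarcted side. Of 27 chaperone genes 14 were lower on both sides (medians -0.12 and -0.07), against 26.2% of all genes tested. Of 23 nuclear respiratory chain genes 17 were higher on the non-infarcted side (0.13) and 10 on the infarcted (-0.02).

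The second question was which genes differed on the infarcted side and not on the other. Here phagocyte, microglia and lysosome genes were lower with LEV, and genes of the meninges and vessel walls were higher. At least 1.5-fold on the infarcted side with under 1.2-fold on the other, 138 genes (0.857%) were lower and 198 (1.23%) higher. The reverse rule, on the non-infarcted side only, gave 60 lower (0.373%) and 77 higher (0.478%). Each such difference rests on 1 library per arm and has no replicate. As a test of the difference between sides, limma took the spread of the side difference from the other 3 PT conditions. In it 1 gene of 16107 passed (0.00621%), Mmp12. There were 757 genes at an unadjusted p under 0.05, where a share of about 0.05 of those tested would fall with no difference.

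**Figure D2:**
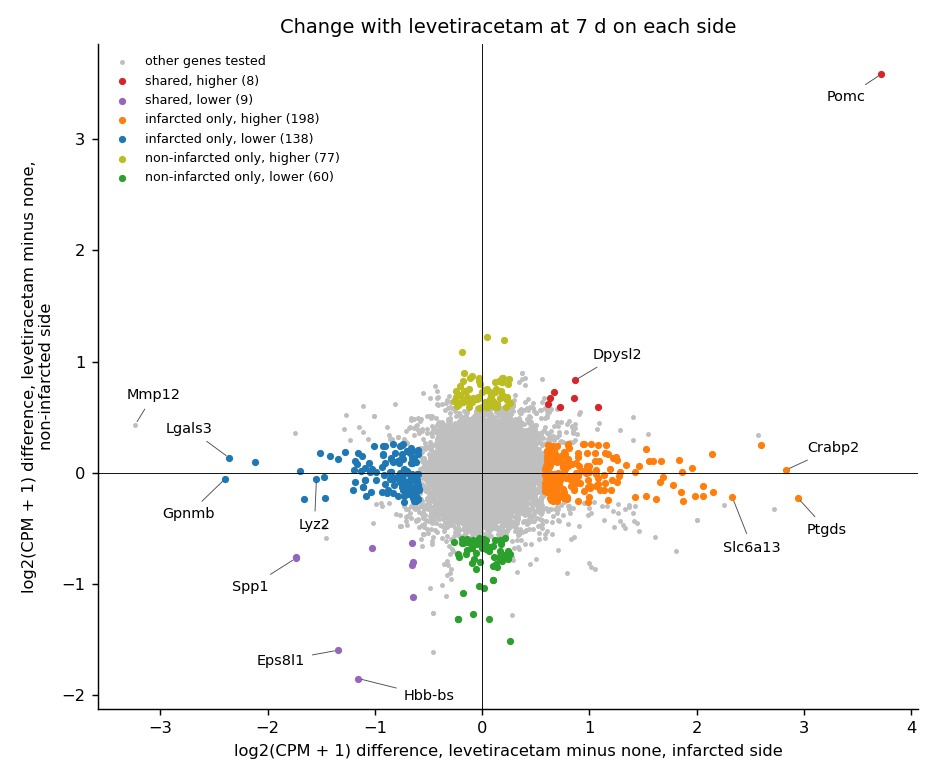
Difference in log2(CPM + 1), levetiracetam minus none, of 16107 genes on the infarcted side (x axis) and the non-infarcted side (y axis); each point is a gene, coloured by the size classes in the text, with class sizes in brackets. Pomc stands alone at 3.72 and 3.584, and the widest spread of the other genes runs along the x axis, from Mmp12 at -3.23 to Ptgds at 2.94.

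Mmp12, the macrophage elastase (ENSMUSG00000049723.14, chr9:7344381-7369499, + strand), was at 29.9 CPM on the infarcted side without LEV, 524 reads, and at 2.29 CPM with LEV, 44 reads. On the non-infarcted side it was at 0.997 and 1.70 CPM, 16 and 30 reads. The library of the infarcted side without LEV thus stood alone, since the 7 libraries outside 7 d held 0.0447 to 0.381 CPM. On the infarcted side Mmp12 was 13.1-fold lower with LEV (9.61 to 18.2). The effect of LEV differed between the sides by -3.67 in log2 (SE 0.42, limma adjusted p = 0.0325). That call was lost under 7 of 12 alternatives, among them TMM scaling (limma adjusted p = 0.0633), no filter on low values (limma adjusted p = 0.906) and edgeR on recovered reads (edgeR adjusted p = 0.0985); over the 12, adjusted p ran from 1.72e-14 to 0.906.

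Next to Mmp12, genes of debris uptake had the largest differences on the infarcted side. Gpnmb, a membrane glycoprotein of lipid-laden phagocytes, was at 43.1 CPM without and 7.39 CPM with LEV on the infarcted side and at 4.61 and 4.41 CPM on the other. Lgals3, the lectin galectin-3, was at 40.7 and 7.13 CPM (infarcted) and 5.11 and 5.71 CPM (non-infarcted). They were 5.83-fold (4.87 to 7.03) and 5.71-fold (4.75 to 6.90) lower on the infarcted side. In both genes the untreated infarcted side was far above the 3 other libraries of 7 d, and with LEV it was within 1 log2 unit of them. The difference between sides was -2.34 for Gpnmb (SE 0.39) and -2.49 for Lgals3 (SE 0.36), with limma adjusted p of 0.131 and 0.121, so neither passed.

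Lyz2, a lysozyme of myeloid cells, was at 77.8 and 26.0 CPM on the infarcted side without and with LEV, and at 9.66 and 9.27 CPM on the other. Plin2, a coat protein of lipid droplets, was at 23.4 and 6.71 CPM against 5.05 and 4.12 CPM. Cd68, a lysosomal membrane protein of macrophages, was at 47.6 and 17.2 CPM against 8.22 and 9.21 CPM. Each was lower by 1.42 to 1.66 in log2 with LEV on the infarcted side and stayed above the non-infarcted side. Cd52 was at 40.3 and 16.0 CPM, Mpeg1, a pore-forming protein of phagocytes, at 25.3 and 11.03 CPM and Wfdc17 at 15.6 and 6.24 CPM on the infarcted side, with 3.30 to 7.52 CPM in the libraries of the other side. Ctsd, the protease cathepsin D, had the highest level of the group, at 544 CPM without and 242 CPM with LEV on the infarcted side and 155 and 163 CPM on the other (2.25-fold lower, 2.17 to 2.33). Spp1, osteopontin, met the shared rule, at 48.0 and 5.23 CPM without and 13.7 and 2.66 CPM with LEV. An overlapping clone-named gene had nearly the same difference as Spp1, so its reads cannot be separated from it here.

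**Figure D3:**
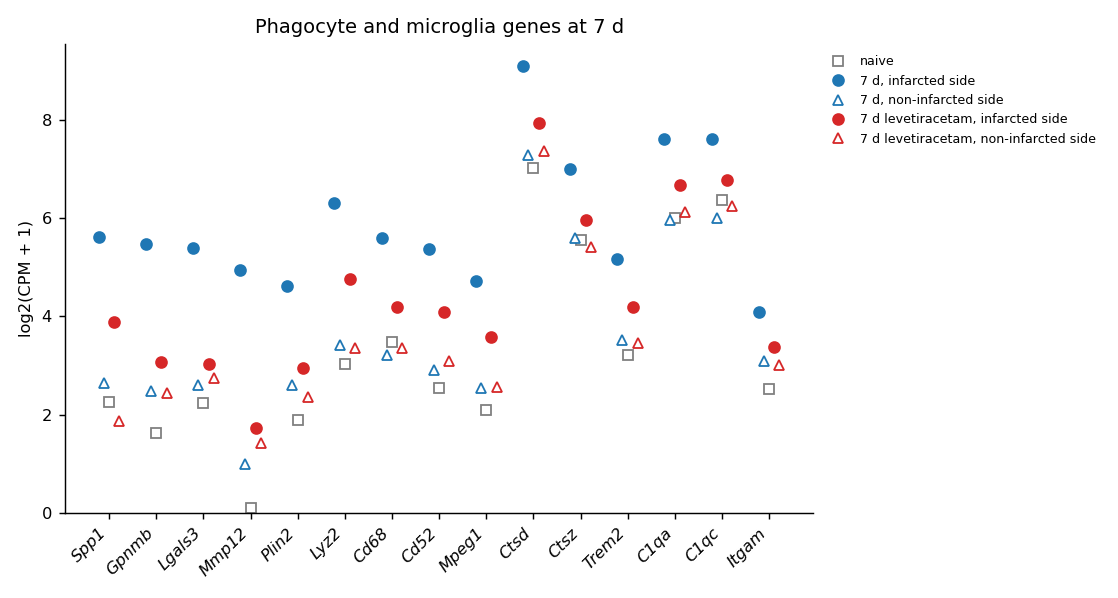
log2(CPM + 1) of 15 phagocyte and microglia genes in naive tissue (square) and the 4 libraries of 7 d (filled circles infarcted, open triangles non-infarcted side; blue without, red with LEV). For every gene the highest point is the infarcted side without LEV, and the infarcted side with LEV lies between it and the 2 points of the non-infarcted side. Most of these genes were named for being lower with LEV on the infarcted side, so this order largely follows from the choice. The macrophage genes Mrc1 and F13a1, which were higher there with LEV, are not shown.

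Over lists, all 21 tested genes of disease-associated phagocytes were lower on the infarcted side with LEV and 12 of 21 on the other, where 53.1% and 46.7% of all genes tested were. Their medians were -1.03 (infarcted) and -0.05 (non-infarcted), and 9 were lower on the infarcted side only by the size rule. All 18 tested genes of homeostatic microglia were lower on the infarcted side (median -0.56) and 12 on the other (-0.07); 9 were at least 1.5-fold lower on the infarcted side, 7 of them on that side only. In the phagocyte list 14 of 21 were at least 1.5-fold lower there. Over all genes tested, 1.36% were at least 1.5-fold lower on the infarcted side, and 0.857% on that side only. Trem2, a lipid receptor of microglia, was at 35.0 and 17.2 CPM (infarcted) and 10.5 and 9.95 CPM (non-infarcted). The homeostatic list also holds Trem2, Itgam, C1qa, C1qb and C1qc, so its median is not one of resting microglia genes alone. Sizes within it varied: on the infarcted side Tmem119 and P2ry12, genes of resting microglia, were at 19.7 and 16.2 CPM and at 30.5 and 22.8 CPM. Of 20 lysosome and cathepsin genes 19 were lower on the infarcted side (median -0.38), with Grn, the progranulin gene, at 83.6 and 53.5 CPM. Earlier results of these data were known when the lists were written, and the size rule and the lists use the same libraries.

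Within complement the members split. C1qa, C1qb and C1qc, the chains of C1q made by microglia, were at 194, 166 and 193 CPM on the infarcted side without LEV and 101, 102 and 108 CPM with it. On the other side they were at 57.9 to 62.6 CPM without and 68.9 to 75.0 CPM with LEV. The receptor subunits Itgam and Itgb2 were 1.72-fold and 2.02-fold lower on the infarcted side, whereas Serping1, the C1 inhibitor, was at 6.69 CPM without and 14.3 CPM with LEV. On the non-infarcted side Serping1 was at 5.11 and 5.26 CPM. Of 12 tested complement genes, 9 were lower and 3 higher on the infarcted side, against 53.1% and 46.9% of all genes tested. For C1qa and C1qc the difference between sides had limma adjusted p of 0.121 and 0.131.

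Macrophage genes of the brain's borders were split, with medians of -0.33 (infarcted) and 0.14 (non-infarcted). Ms4a7 was at 8.28 CPM without and 2.65 CPM with LEV on the infarcted side and Fcgr3, an Fc receptor, at 44.7 and 22.9 CPM, while Mrc1, the mannose receptor, was at 2.51 and 4.58 CPM and F13a1, a coagulation factor chain, at 2.97 and 6.87 CPM. Of 12 tested, 5 were higher and 7 lower on the infarcted side, 4 in each direction by at least 1.5-fold. Over all genes tested, 46.9% were higher and 53.1% lower there, 1.99% and 1.36% by at least 1.5-fold. Interferon response genes had medians of -0.01 and 0.03 and summed to 252 CPM in the 2 libraries of the infarcted side, without LEV and with it alike. Antigen presentation genes had medians of 0.03 and -0.11, with B2m at 123 and 98.5 CPM and the class II gene H2-Ab1 at 5.09 and 9.10 CPM on the infarcted side.

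Replication-dependent histone genes are used in S phase, and their RNAs lack a poly(A) tail. On the infarcted side 38 of 41 tested were lower (median -0.35), against 53.1% of all genes tested. On the other side 35 of 41 were higher (median 0.30), against 53.3%. The list summed to between 3077 and 3744 CPM in the 4 libraries of 7 d, within the 2575 to 5284 CPM of the 7 others. H3c3 was at 18.8 and 8.17 CPM (infarcted) and 2.55 and 2.26 CPM (non-infarcted), and H2ac12 at 12.2 and 4.73 against 1.43 and 1.19 CPM. H3c7 was at 52.9 and 44.4 CPM on the infarcted side and 33.5 and 54.5 CPM on the other. H3c3 had the same reads as another gene in every library, so histone copies may not be separated, and the list was added after values were seen.

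Genes higher on the infarcted side with LEV were led by genes of the leptomeninges, the thin membranes on the brain surface. Ptgds, the prostaglandin D synthase of the arachnoid (ENSMUSG00000015090.13), was at 954 CPM without and 7348 CPM with LEV on the infarcted side and at 1688 and 1443 CPM on the other. It was 7.70-fold higher with LEV (7.58 to 7.82) on the infarcted side and 0.855-fold on the other. The LEV library of the infarcted side was the highest of all 11, where the 7 outside 7 d ran from 1262 to 5181 CPM. The difference between sides, 3.17 in log2 (SE 0.85), did not pass (limma adjusted p = 0.586).

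Crabp2, a carrier of retinoic acid, was at 1.77 CPM without and 18.7 CPM with LEV on the infarcted side and 3.43 and 3.50 CPM on the other (10.6-fold, 7.32 to 15.8). Slc6a13, the GABA transporter GAT2 of the meninges, was at 5.60 and 32.3 CPM (infarcted) and 9.72 and 8.19 CPM (non-infarcted). Slc13a4, a sulfate carrier, was at 17.03 and 78.4 CPM against 23.3 and 26.4 CPM. In these genes 3 libraries were near the naive level of 3.07, 14.6 and 25.1 CPM or below it, and the infarcted side with LEV was above. Aldh1a2, an enzyme that makes retinoic acid, was at 2.57 and 13.9 CPM on the infarcted side, Fmod, a proteoglycan, at 6.63 and 30.8 CPM, Slc22a6, an organic anion transporter, at 3.14 and 15.4 CPM, and Slc6a20a, a proline transporter, at 8.17 and 32.1 CPM. Mgp, an inhibitor of calcification, was at 66.2 and 239 CPM and Bmp7, a growth factor of the TGF-beta family, at 6.06 and 21.7 CPM. On the other side these 6 genes differed by -0.21 to 0.11 in log2.

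Such genes also varied among libraries outside this comparison. Ptgds was at 4027 CPM on the non-infarcted side at 1 month and at 1523 CPM on the infarcted, and at 5181 and 2253 CPM (infarcted, then other side) at 2 months. Crabp2 was at 13.6 CPM on the infarcted side at 2 months and 7.39 CPM on the non-infarcted side at 1 month. A list of 28 arachnoid and leptomeningeal genes, chosen after values were seen, summed to 8173 CPM on the infarcted side with LEV and 1277 CPM without, and to between 1587 and 5819 CPM in the 7 libraries outside 7 d. Of its 27 tested members, 23 were at least 1.5-fold higher on the infarcted side, which the choice of the list fixes. How much meninges each dissection held was not tested.

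**Figure D4:**
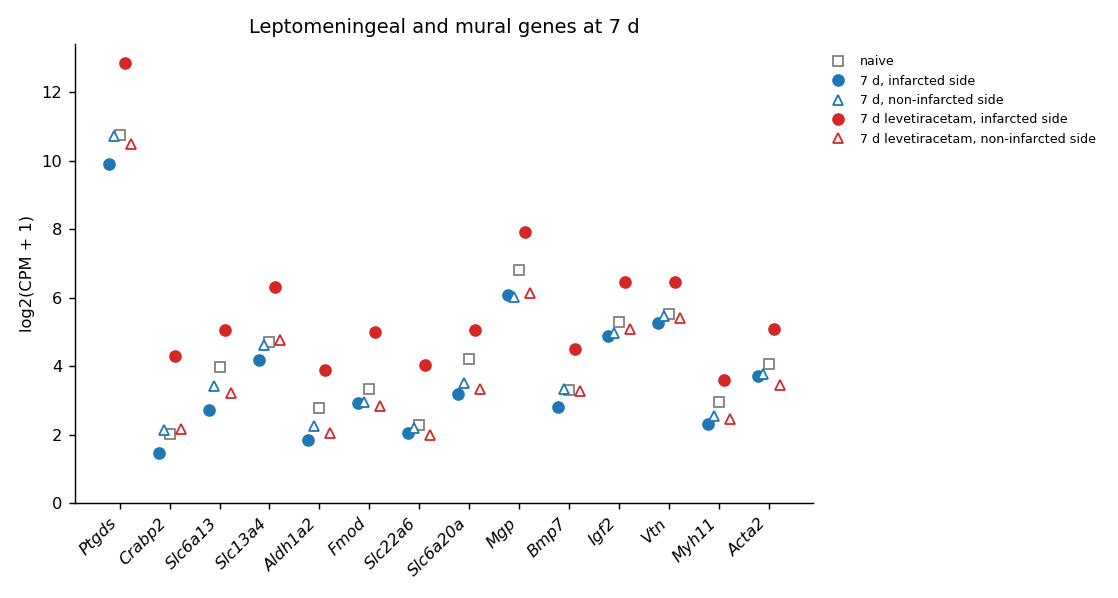
log2(CPM + 1) of 14 leptomeningeal and vessel wall genes in naive tissue (square) and the 4 libraries of 7 d (filled circles infarcted, open triangles non-infarcted side; blue without, red with LEV). In all 14 the highest point is the infarcted side with LEV, such as Ptgds at 7348 CPM. Most of these genes were named for being higher with LEV on that side, so this order largely follows from the choice. Rgs5 and Col4a1, which were not higher there with LEV, are not shown.

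Genes of fibroblasts and vessel walls were higher on the same side. Of 20 genes of meningeal fibroblasts, collagens and laminins, 18 were higher on the infarcted side (median 0.53) and 10 on the other (0.00). Over all genes tested, 46.9% were higher on the infarcted side and 53.3% on the other. Igf2, a growth factor of meninges and choroid plexus, was at 28.4 and 87.7 CPM on the infarcted side and 30.3 and 32.7 CPM on the other, and Col1a1 at 18.8 and 26.2 against 14.1 and 8.70 CPM. Col4a1, of the basement membrane, was at 34.6 and 33.7 CPM on the infarcted side. Of 11 tested pericyte and smooth muscle genes, 9 were higher on the infarcted side (median 0.59): Acta2, smooth muscle actin, was at 12.2 and 33.2 CPM, Myh11 higher by 1.26 in log2 and Vtn at 37.2 and 87.3 CPM, while the pericyte gene Rgs5 was at 72.3 and 59.6 CPM. Endothelial genes had medians of 0.18 and -0.07, with Cldn5 at 49.5 and 42.8 CPM on the infarcted side.

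Choroid plexus genes were higher on both sides in 12 of 15 (medians 0.35 and 0.24), against 26.5% of all genes tested. Ttr, transthyretin, was at 3291 and 3031 CPM without and 4652 and 3781 CPM with LEV. The 15 genes summed to between 3676 and 5460 CPM in the 4 libraries of 7 d and to between 131 and 4905 CPM in the other 7. None passed, and the part of choroid plexus in the dissections was not tested.

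**Figure D5:**
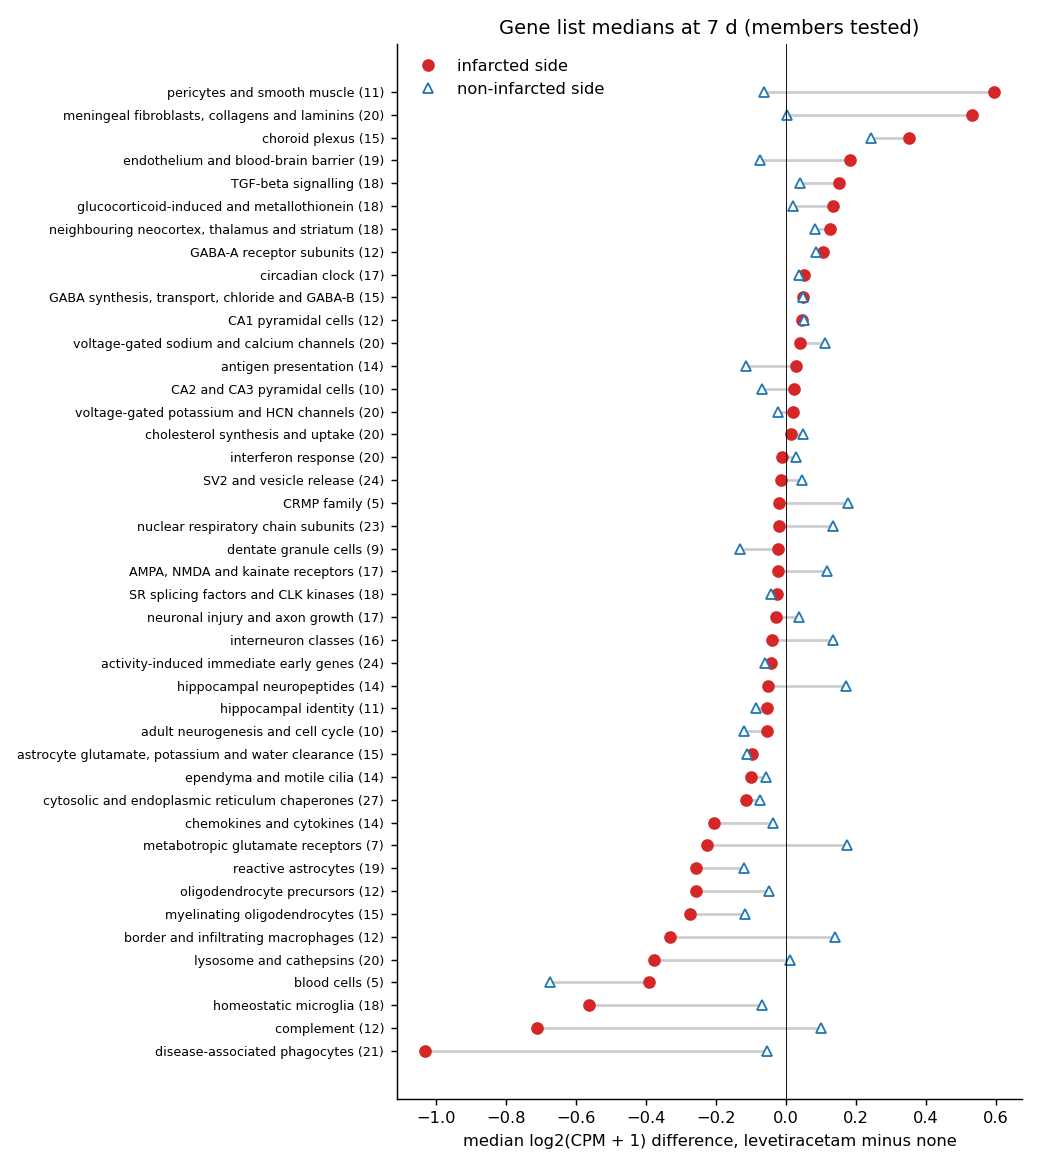
Median difference in log2(CPM + 1), levetiracetam minus none, of each gene list with at least 5 tested members (number in brackets; the 3 lists added later are left out), on the infarcted (red circles) and non-infarcted side (open blue triangles). Disease-associated phagocytes lie lowest at -1.03 on the infarcted side and pericytes and smooth muscle highest at 0.59, while their medians on the other side are -0.05 and -0.06.

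The place of each library among all 11 was counted for genes of the size classes with a mean of at least 5 CPM. Of the 62 genes lower on the infarcted side only, the infarcted side without LEV was the highest of all 11 libraries in 55. With LEV, the infarcted side lay within the range of the 7 libraries outside 7 d for 31 of the 62 and above it for 24. The infarcted side exceeded the other by a median of 1.22 in log2 without LEV and 0.42 with LEV. Of the 89 genes higher on the infarcted side only, the infarcted side with LEV was the highest of 11 in 58, and the infarcted side without LEV the lowest in 13. These counts describe genes chosen by the same libraries. For the first class they turn mainly on the library without LEV, and for the second on the library with LEV.

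Differences on the non-infarcted side alone were fewer and smaller. Cdc42ep3, an effector of the GTPase Cdc42, was at 6.04 CPM without and 11.4 CPM with LEV on that side and 9.66 and 10.6 CPM on the infarcted. Dynlt1b, a dynein light chain, was at 21.9 and 36.9 CPM against 35.1 CPM in both infarcted libraries. Fhod3, H3c7 and Atad5 were higher by 0.68 to 0.74 in log2. Among lower genes, Ghitm, a mitochondrial inner membrane protein, was at 843 and 550 CPM on the non-infarcted side and 578 and 573 CPM on the infarcted. Anxa4 was at 5.92 and 2.94 CPM, Entpd5 at 15.1 and 8.82 CPM, Rnd2 at 22.99 and 13.7 CPM and Cthrc1 at 10.1 and 5.93 CPM. Of the 20 genes higher with a mean of at least 5 CPM, the non-infarcted side without LEV was the lowest of 11 libraries in 13, and of the 17 lower it was the highest in 9.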

How the data were processed

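CAGE libraries were made from cap-trapped, random-primed total RNA. The authors deposited 1 table of CPM per gene. The submitters' processing notes name the build GRCm38, HISAT2 2.0.5, BWA 0.7.17 and DESeq2 1.20.0; the role of each and the annotation are not stated there. All values were whole reads (100% within 0.0001) of totals recovered from the step between values; 626 genes had the same reads as another gene and cannot be separated from it. Of 22377 identifiers, 22335 matched GENCODE M21 without the version number, and coordinates are from it.

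Values were used as log2(CPM + 1), for genes with a mean of at least 1 CPM over the 4 libraries of 7 d. limma 3.58.1 (R 4.3.3; eBayes with a trend, two-sided, Benjamini-Hochberg over 16107 genes, threshold 0.05) was fitted over 10 PT libraries, with condition and side (4 residual degrees of freedom), and with a side difference of its own for 7 d and 7 d LEV (2 residual degrees). Fits were also run on simulated counts with a fixed dispersion and no added spread between sides or conditions. Such counts lack the spread from which the fits above take their error. edgeR 4.0.16 and DESeq2 1.42.0 on the recovered counts were alternatives. Size classes took at least 1.5-fold on 1 side or both, and under 1.2-fold on the other side for those of 1 side. Ratios have exact binomial intervals (95%).

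The members and lists (43, and 3 added after values were seen) were chosen with earlier results of these data known. Named genes were up to 10 per direction by size or smallest p (5 for the non-infarcted side), with at least 5 CPM outside those passing, and members of lists by class or level. Genes outside this rule (Mmp12, Prox1, Pcsk1, Vim, Mag, Fos, Npas4, Tmem119, P2ry12, C1qb, Col1a1, Col4a1, Acta2, Cldn5, Dpysl3, Dpysl4 and Dpysl5) were chosen after their values were seen. The other libraries, other than as stated, and sequence reads were not analysed here. Results for some genes are not reported here.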

Additional observations from a re-analysis of the deposited data

Results flagged for a closer look

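Mmp12, the macrophage elastase, was the 1 gene whose difference with LEV itself differed between the sides in limma. The effect on the infarcted side minus that on the other was -3.667 in log2(CPM + 1), from 29.9 CPM without and 2.29 CPM with LEV on the infarcted side and 0.997 and 1.70 CPM on the other. The value rests on 1 library per arm, and its spread on the side differences of 3 other conditions in which Mmp12 was between 0.0447 and 0.381 CPM.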

How the results depend on the processing

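For the shared effect, 3 genes passed. Without a trend 1 did, and in the 4 libraries of 7 d alone 14. Leaving out any 1 of these 4 libraries left an arm with 1 library assumed to vary like the others, so counts of those fits are not given. Differences of the side that remained in that arm then entered the shared fit. TMM scaling and quantile normalization gave 2 higher and 0 lower. The labels give no replicate numbers, so pairing was by side: with no replicate block (no side term) 4 genes passed, the 3 calls among them. edgeR called 2, both among the 3. DESeq2 called 3, of which 1 was among them, and gave no adjusted p for 9993 genes. Pomc passed under all 16 alternatives that gave it a value (limma and edgeR adjusted p 1.51e-09 to 0.00512).

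For the difference between sides, 1 gene passed, and with pseudocount 5 there were 3. TMM scaling, pseudocount 0.1, no filter and a mean of at least 5 CPM gave 0 (773, 708, 1100 and 542 at an unadjusted p under 0.05). A share of about 0.05 of the genes tested would fall under that unadjusted p with no difference. Of the alternatives chosen after seeing the data, edgeR gave 0 (799 unadjusted) and DESeq2 2; leaving out both libraries of 1 other condition, with 1 residual degree of freedom each time, gave 137 without PT 1 month, 105 without 2 months and 0 without 1 month LEV (595 unadjusted).

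Size classes moved with the fold and the pseudocount. In the order shared, infarcted only and non-infarcted only, each higher then lower, a fold of 2 gave 1, 2, 56, 31, 3 and 8 genes, a fold of 1.3 gave 80, 65, 560, 434, 397 and 314, pseudocount 5 gave 3, 2, 91, 62, 2 and 13, and a mean of at least 5 CPM gave 3, 4, 89, 62, 20 and 17. Pseudocount 0.1 gave 52 and 42 shared and 165 and 139 non-infarcted only; no filter gave 105 lower on the non-infarcted side only. With pseudocount 5, list medians moved to 0.33 (pericytes, infarcted), -0.31 (blood cells, non-infarcted) and 1.02 (arachnoid, infarcted); 365 other list values moved by less than 1 SD. In the shared fit, leaving out 1 library gave -0.04749 to 0.01948 for Sv2a and -0.001597 to 0.2463 for Sv2b, whose signs turned without the non-infarcted side of LEV, and -3.309 to 0.5085 for Mmp12, whose sign turned without the infarcted side of no LEV. The cause was not tested. Depth limits genes under about 1 CPM.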
